A study of Mus musculus with 48 samples.

Results

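The genes described here are 9 markers of the oligodendrocyte lineage, 7 that are used in making or holding the myelin sheath (Mbp, Mog, Mag, Mobp, Cnp, Opalin and Myrf) and 2 that mark oligodendrocyte precursor cells (Pdgfra and Cspg4). They were chosen by name from the 55357 genes of the deposited count table, and all 9 were among the 21390 genes that passed the filter for low counts. RNA was sequenced from the dorsal dentate gyrus of 24 wild-type C57BL/6J mice after a single injection into 1 hippocampus. Kainate, which induces status epilepticus (SE), was given to 12 mice and saline to the other 12, and tissue was taken 3, 7 or 14 days later. Each mouse gave 1 library from the injected side, the epileptogenic zone (EZ), and 1 from the opposite side, the peri-ictal zone (PIZ), so that 48 libraries formed 12 groups of 4 mice. Each group held 2 male and 2 female mice, and their age is given as 6 to 8 weeks in the design text of the deposited series and as 8 to 10 weeks in the methods. Every mouse of both arms underwent the injection, and kainate-injected mice entered the study after seizures had been seen. The samples are bulk tissue that includes the hilus, so more or fewer cells of a type and more or less RNA per cell cannot be told apart in any value below.

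In the adult brain, oligodendrocytes wrap axons in a membrane that is compacted into myelin, and precursor cells spread through grey and white matter divide and replace them. Precursor cells divide in response to platelet-derived growth factor (PDGF), then exit the cell cycle, pass through a short-lived committed stage and switch on the myelin genes under Sox10 and Myrf. Mbp encodes the basic protein that holds the inner membrane faces together, Mobp another protein of compact myelin, and Mog a surface protein of the outermost layer. Mag is an adhesion protein of the membrane facing the axon, Cnp an enzyme of the non-compact channels, Opalin a membrane protein of mature oligodendrocytes and Myrf the transcription factor that turns on the myelin programme. Pdgfra encodes the receptor for PDGF-A and Cspg4 the NG2 proteoglycan of the precursor surface. Pdgfra is also a gene of fibroblasts, and Cspg4 of pericytes, which lie around capillaries.

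In the GRCm39 assembly, Mog lies at chr17:37321521-37334350. Mag is found at chr7:30598464-30614474, Mobp at chr9:119973770-120011273, Cnp at chr11:100465730-100482936 and Opalin at chr19:41045254-41065553. Myrf occupies chr19:10185634-10218161, Pdgfra chr5:75311994-75358876 and Cspg4 chr9:56772317-56807187. The counts cover the exons of each gene, untranslated regions included.

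The 250 bases before the RefSeq start site are shown for a pair of genes from each set, in GRCm38.p6 coordinates and on the plus strand. These are Cnp (chr11:100574689-100574938), Mobp (chr9:120149492-120149741), Pdgfra (chr5:75152001-75152250) and Cspg4 (chr9:56864854-56865103), and capitals mark matches on either strand to ACAAT or ACAAAG, forms of the core that Sox factors recognise, or to CTGGNAC, the core recognised by Myrf.
Cnp: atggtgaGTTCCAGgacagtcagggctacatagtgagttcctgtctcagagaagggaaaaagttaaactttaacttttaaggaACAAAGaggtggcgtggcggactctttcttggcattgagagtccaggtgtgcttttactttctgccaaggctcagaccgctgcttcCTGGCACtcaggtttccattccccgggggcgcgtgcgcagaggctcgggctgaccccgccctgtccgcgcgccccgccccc
Mobp: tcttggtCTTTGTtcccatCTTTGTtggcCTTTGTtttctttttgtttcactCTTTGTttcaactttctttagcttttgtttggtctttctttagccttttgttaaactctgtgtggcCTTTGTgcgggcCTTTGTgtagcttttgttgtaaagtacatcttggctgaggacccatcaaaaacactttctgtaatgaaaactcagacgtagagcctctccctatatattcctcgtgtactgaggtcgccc
Pdgfra: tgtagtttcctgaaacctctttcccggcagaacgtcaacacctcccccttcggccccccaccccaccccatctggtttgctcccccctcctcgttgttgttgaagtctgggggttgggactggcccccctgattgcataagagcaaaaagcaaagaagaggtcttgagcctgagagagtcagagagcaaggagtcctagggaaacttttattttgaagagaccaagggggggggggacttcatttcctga
Cspg4: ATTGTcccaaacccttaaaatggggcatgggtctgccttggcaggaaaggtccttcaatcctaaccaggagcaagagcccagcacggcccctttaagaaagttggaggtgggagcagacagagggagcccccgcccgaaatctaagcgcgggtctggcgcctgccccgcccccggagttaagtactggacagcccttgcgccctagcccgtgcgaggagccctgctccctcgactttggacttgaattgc

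RefSeq entries were at hand for 7 members, all but Mbp and Myrf. In these windows Cnp held 1 ACAAAG and 2 CTGGNAC matches, and Mobp held 6 ACAAAG and 0 CTGGNAC matches. Pdgfra held none of the 3 forms, and Cspg4 held 1 match to ACAAT at the far end of its window. Of the myelin windows not shown, that of Mog held 1 CTGGNAC match and neither ACAAT nor ACAAAG. Opalin held 1 ACAAAG and 0 CTGGNAC matches. The Mag window at chr7:30914322-30914571 held none of the 3 forms, and the other Mag windows each held 1 ACAAAG and 2 CTGGNAC matches. Any link between these letters and the levels was not tested. Among 32851 promoter windows of this length, 27.7% held ACAAT, 16.5% ACAAAG and 16.1% CTGGNAC, counting windows with at least 1 match on either strand. The E-box CANNTG, the letters that Olig2 and related factors bind, was in 66.2% of windows. It occurred 1 time in the Cnp window and 1 time in that of Pdgfra, and an ACAAT match can overlap it. A match describes the letters in a window and not a bound site.

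Library totals lay between 17762656 and 25712975 counts. Among the members the lowest count in any library was 196, for Opalin, and the highest was 121541, for Mbp. Levels are given as CPM, a count scaled to the library's total after TMM adjustment, and fold changes come from 1 edgeR quasi-likelihood model of all 48 libraries. A gene was called upregulated or downregulated when its Benjamini-Hochberg adjusted p over all 21390 genes was under 0.01 and its fold change over 1.5. Markers of granule cells and other neurons were detected in every library, with a summed level of 3411 to 4407 CPM in the saline PIZ at day 3. Of the Schwann cell list, for the myelinating cells of peripheral nerves, Pmp2 had at most 6 counts in any library, while the 3 genes that passed the filter (Prx, Ncmap and Drp2) summed to 64.3 to 75.8 CPM in the saline EZ and 69.001 to 85.3 CPM in the saline PIZ at day 3. In the EZ at days 3 and 7 Prx was upregulated and Drp2 downregulated.

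To compare levels between genes, CPM was divided by the exonic length in kilobases, over the 24 saline libraries. On this scale the median was 115 (range 65.8 to 253) for Mbp, 40.2 (range 27.6 to 60.5) for Cnp and 39.01 (range 18.01 to 95.6) for Mobp. Mag followed at 14.98 (range 8.95 to 26.9) and Mog at 13.7 (range 7.55 to 23.7). The lower levels were those of Pdgfra at 4.12 (range 3.67 to 5.71), Myrf at 3.89 (range 2.91 to 6.28), Opalin at 2.21 (range 1.52 to 4.11) and Cspg4 at 1.65 (range 1.21 to 2.27). Within each library the order was not always the same for neighbours. Cnp was above Mobp in 13 of 24 libraries and Pdgfra above Myrf in 13 of 24, so that neither pair had a settled order. Mag was above Mog in 21 and Opalin above Cspg4 in 23 of 24. The other neighbours kept their order in all 24 saline libraries. The spread was wide for the myelin genes, with an SD of 15.6 about a mean of 43.4 CPM per kilobase for Mobp. For Pdgfra the SD was 0.476 about a mean of 4.19.

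**Figure D1:**
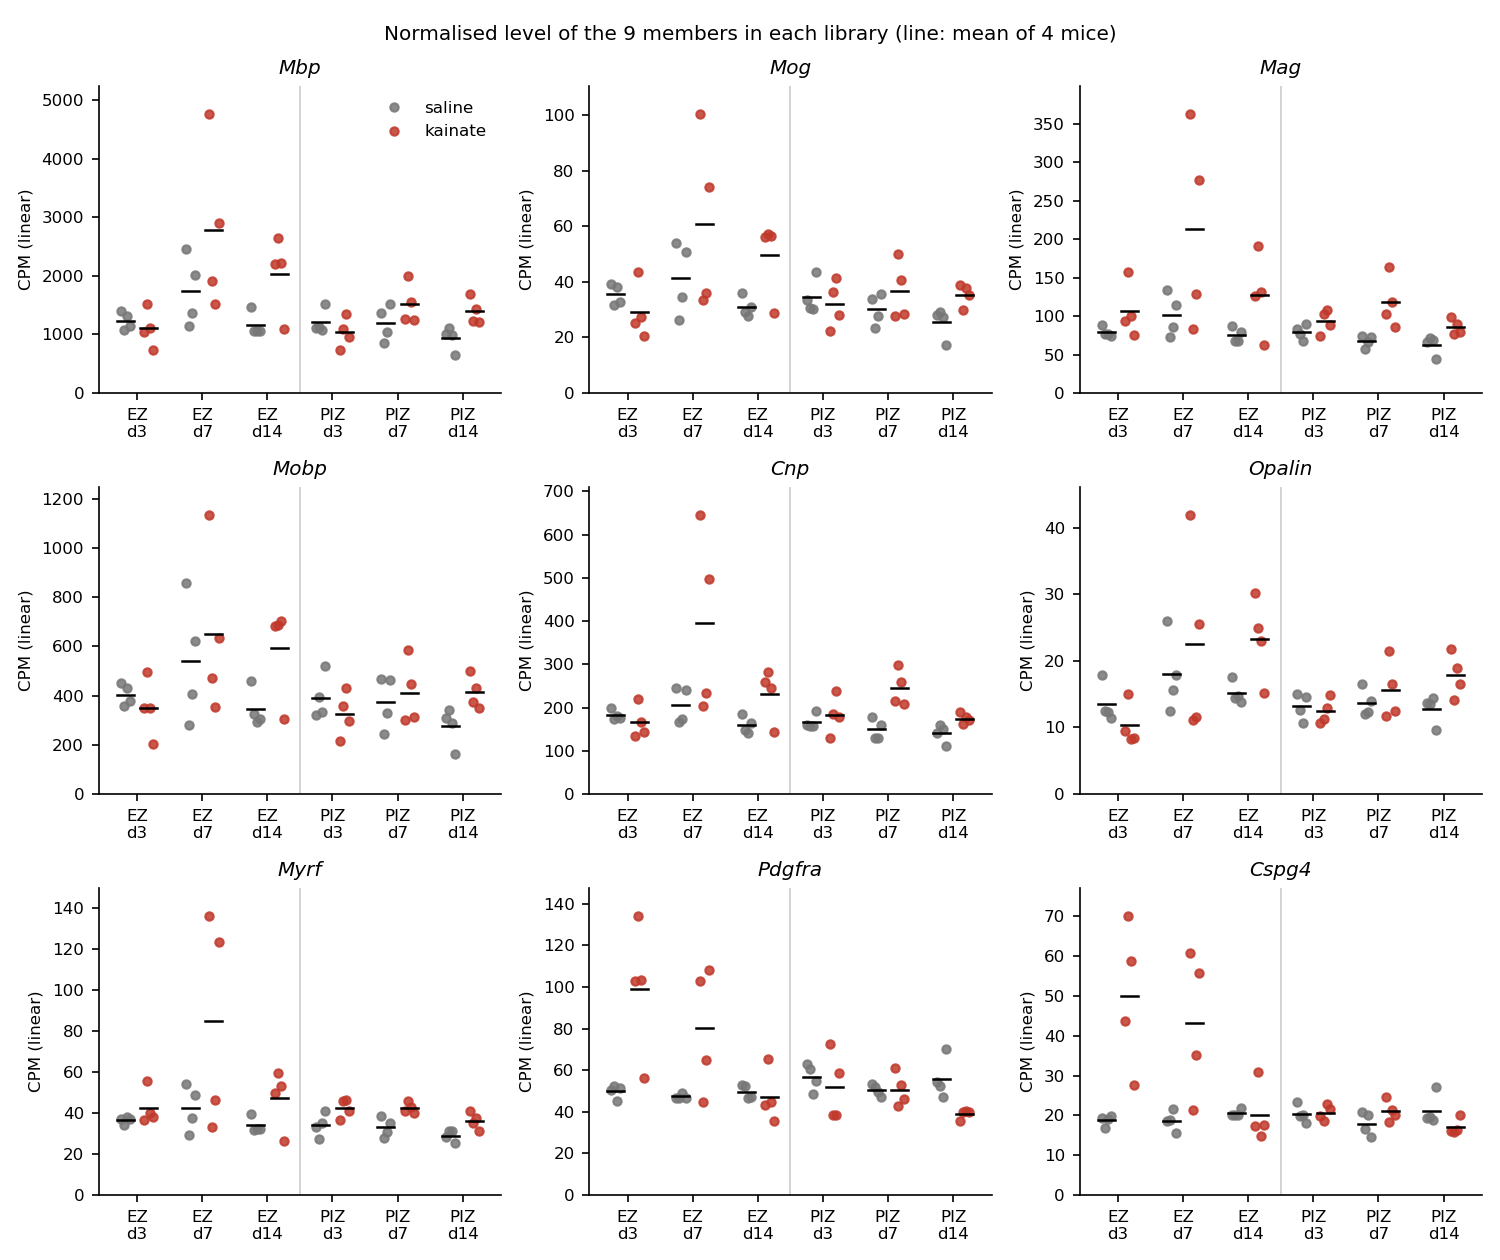
Level of each member in every library, in CPM on a linear axis that starts at 0, by region (EZ left of the line, PIZ right) and day (d3, d7, d14), with saline-injected mice in grey, kainate-injected mice in red and the mean of 4 mice as a black line. Pdgfra and Cspg4 lie above the saline values in the EZ in all 4 kainate-injected mice at day 3 and in 3 of 4 at day 7, and the highest value of each myelin gene is that of 1 kainate-injected mouse in the EZ at day 7.

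Both precursor genes were upregulated in the EZ 3 days after SE. Cspg4 measured 43.8, 70.1, 58.9 and 27.7 CPM in mice 30, 38, 42 and 44, against 19.2, 16.9, 19.1 and 19.9 CPM in the saline-injected mice. Every kainate-injected mouse lay above every saline-injected one, with mouse 44 the closest to them. Cspg4 was upregulated (log2 fold change 1.41, SE 0.23, adjusted p = 5.12e-06). Pdgfra measured 103, 134, 103 and 56.2 CPM in mice 30, 38, 42 and 44, against 50.2, 52.3, 45.2 and 51.3 CPM in saline. Its groups were again separate, mouse 44 exceeding the highest saline value only slightly, and Pdgfra was upregulated (log2 fold change 0.99, SE 0.21, adjusted p = 0.000193). Of all genes tested, 16.1% were called higher in this comparison and 8.61% lower, and in 23.9% the kainate group lay wholly above saline.

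At day 7 in the EZ, Cspg4 measured 60.8, 21.3, 35.2 and 55.8 CPM in mice 21, 23, 26 and 35, and 18.5, 18.8, 21.7 and 15.5 CPM in saline-injected mice. Mouse 23 lay within the saline range and the other three kainate-injected mice above it. Cspg4 was upregulated (log2 fold change 1.22, SE 0.23, adjusted p = 2.2e-05). Pdgfra measured 103, 44.9, 64.96 and 108 CPM in mice 21, 23, 26 and 35 after kainate, against a saline group as tight as 46.7, 46.9, 49.02 and 46.8 CPM. Mouse 23 was below all saline values, mouse 26 above them and mice 21 and 35 far above, and Pdgfra was upregulated (log2 fold change 0.76, SE 0.21, adjusted p = 0.00222). The Pdgfra call was lost in edgeR without mouse 21 (adjusted p = 0.0176) and without mouse 35 (adjusted p = 0.0241). When the model held only the 8 libraries compared, neither gene was called (adjusted p = 0.0128 for Cspg4 and 0.0368 for Pdgfra). In this comparison 20.6% of all genes were called higher and 11.9% lower.

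By day 14 the precursor genes were not called in the EZ. Cspg4 measured 17.2, 30.997, 14.9 and 17.6 CPM in mice 14, 27, 36 and 40, against 20.03, 20.1, 19.98 and 21.9 CPM in saline. Only mouse 27 was above the saline range, and the other three were below it (log2 fold change -0.02, SE 0.23, adjusted p = 0.977). Pdgfra showed the same arrangement, with 43.2, 65.4, 44.6 and 35.6 CPM in mice 14, 27, 36 and 40 against 52.7, 52.2, 46.7 and 46.96 CPM in saline (log2 fold change -0.07, SE 0.21, adjusted p = 0.894). The kainate effect at day 14 minus that at day 7 was -1.24 on the log2 scale for Cspg4 (adjusted p = 0.017) and -0.83 for Pdgfra (adjusted p = 0.0507) in edgeR, neither past the threshold. EdgeR called no member in this contrast, DESeq2 1 and limma-voom with quality weights 2, and edgeR called 2 without mouse 23, 1 without mouse 26 and 2 without mouse 27. Over all genes 0.271% were called in that contrast. Mouse 27 was also the highest of its group in the microglia sum, at 2634 CPM against 376 to 399 in saline, and in the pericyte sum, at 309 CPM against 199 to 226. The same held for the fibroblast and meninges sum, at 150.5 CPM against 54.5 to 106 in saline, and for the astrocyte sum, at 12578 CPM against 5533 to 6208. Their part in its Pdgfra and Cspg4 values was not tested.

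In the PIZ neither precursor gene was called at any day. At day 3 Cspg4 lay at 19.7, 18.5, 22.9 and 21.5 CPM after kainate and 23.3, 19.9, 20.2 and 18.1 CPM after saline, so that the groups covered nearly the same range. The kainate effect on Cspg4 was larger in the EZ than in the PIZ by 1.39 at day 3 (adjusted p = 0.0321) and by 0.99 at day 7 (adjusted p = 0.0203) on the log2 scale. For Pdgfra the corresponding differences were 1.12 (adjusted p = 0.0577) and 0.75 (adjusted p = 0.0534). These differences missed the 0.01 threshold, so the effect was not shown to differ between the regions. No member was called in either test by edgeR, 2 having an unadjusted p under 0.05 each time. Of all 21390 genes, 3828 had such a p at day 3 and 8594 at day 7. DESeq2 called 1 member at day 3 and limma-voom with quality weights 2 at each day. Without mouse 44, 2 members were called at day 3, and without mouse 23, 1 was called at day 7. Over all genes 0.0655% passed at day 3 and 9.89% at day 7. At day 14 in the PIZ the values of Pdgfra were 35.5, 39.8, 40.6 and 40.01 CPM in mice 14, 27, 36 and 40 after kainate and 54.4, 52.2, 46.9 and 70.3 CPM after saline. All 4 kainate values were below all saline values, a separation seen downward in 3.47% of all genes, but the difference was not called (log2 fold change -0.52, SE 0.21, adjusted p = 0.707).

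Genes of other cells that use Pdgfra or Cspg4 moved in the same libraries. In the EZ, 6 of 8 pericyte and mural markers were upregulated at day 3 and 7 of 8 at day 7. Their summed level was 203 to 221 CPM in saline and 269.5 to 535 CPM in kainate at day 3. At day 7 it was 176 to 208 CPM in saline and 249.6 to 437 CPM in kainate. Of 8 fibroblast and meningeal markers, 5 were upregulated at day 3 and 6 at day 7, when 1 was downregulated. They summed to 49.1 to 67.04 CPM in saline and 63.9 to 516 CPM in kainate at day 7. All 6 markers of dividing cells were upregulated at both days, their sum going from 43.8 to 82.3 CPM in saline to 168 to 437 CPM in kainate at day 3. All markers of these 3 lists passed the filter for low counts, and the part of pericytes, fibroblasts and dividing cells in the Pdgfra and Cspg4 values was not tested.

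At day 3 none of the 7 myelin genes was called in the EZ by edgeR, DESeq2 or limma-voom, and none had an unadjusted p under 0.05. Over all genes 11537 of 21390 had such a p in edgeR. Log2 fold changes ran from -0.39 for Opalin to 0.43 for Mag, with a median of -0.16 beside 0.03 over all genes. Mbp, which lies at chr18:82493207-82603763 (GRCm39), measured 1035, 1526, 1116 and 736 CPM in mice 30, 38, 42 and 44 after kainate and 1394, 1081, 1317 and 1142 CPM after saline. Mouse 38 was above every saline value and mice 30 and 44 were below them. Mobp measured 352, 495, 348 and 202 CPM in the same mice, against 449.8, 357, 430.4 and 376 CPM in saline (log2 fold change -0.21, SE 0.32, adjusted p = 0.62). For Mobp, as for Mog, mouse 38 was above the saline range and the other three below it, mouse 44 the lowest.

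At day 7 in the EZ, 3 of the 7 myelin genes were upregulated (Mag, Cnp and Myrf), in a comparison where 20.6% of all genes were called higher. Cnp measured 646, 204, 233 and 497 CPM in mice 21, 23, 26 and 35, and 245, 165, 175 and 240.4 CPM after saline. Mice 21 and 35 were far above the saline range while mice 23 and 26 lay inside it (log2 fold change 0.94, SE 0.23, adjusted p = 0.000761). Mag gave 363, 83.5, 129 and 277 CPM in the same order of mice, against 134, 72.2, 85.8 and 115 CPM in saline (log2 fold change 1.07, SE 0.29, adjusted p = 0.00185). Again the upper pair were mice 21 and 35, with mice 23 and 26 inside the saline range. Myrf gave 136, 33.04, 46.2 and 123 CPM, against 54.2, 29.2, 37.5 and 48.8 CPM (log2 fold change 0.998, SE 0.25, adjusted p = 0.00105). The remaining 4 myelin genes were not called, and their log2 fold changes were positive with all 8 libraries. Without mouse 21 that of Mobp was -0.151 and that of Opalin -0.155. Mbp, the most abundant, measured 4764, 1919, 1527 and 2902 CPM, against 2466, 1148, 1365 and 2009 CPM in mice 20, 33, 34 and 89 (log2 fold change 0.67, SE 0.28, adjusted p = 0.0372). Saline-injected mice 20 and 89 were themselves high, above mice 23 and 26 of the kainate group. The other three were Mobp (log2 fold change 0.26, SE 0.32, adjusted p = 0.503), Opalin (log2 fold change 0.33, SE 0.27, adjusted p = 0.31) and Mog (log2 fold change 0.56, SE 0.27, adjusted p = 0.0753). In all of them mouse 20 was above mice 23 and 26, and for Mobp and Opalin it was also above mouse 35. No member had groups that did not overlap at this day, whereas 23.7% of all genes had kainate wholly above saline. The median over the 7 genes was 0.67, against 0.01 over all genes.

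The day 7 calls depended on single mice. Of the 5 members called at day 7, precursor genes included, 1 (Cspg4) was still called without mouse 21 and 2 (Cnp and Cspg4) without mouse 35. Without mouse 26, Mbp became called as well (log2 fold change 0.872, adjusted p = 0.0086 in edgeR). Mag was also lost without saline-injected mouse 33 (log2 fold change 0.935, adjusted p = 0.0126 in edgeR). With limma-voom, 3 were called, both with and without the mouse as a block, Mag having an adjusted p of 0.0145 and Myrf of 0.0106 with the block. With only the 8 libraries of this comparison in the model, none of the 5 was called, and the adjusted p of the 3 myelin genes lay between 0.0667 for Cnp and 0.0983 for Myrf. Their log2 fold changes stayed close to those of the full model, at 1.06 for Mag, 0.928 for Cnp and 0.988 for Myrf. The same held for Cspg4 at 1.21 and Pdgfra at 0.754. The same mice also stood apart in other markers. The summed neuron markers were 1064 and 1268 CPM in mice 21 and 35, and 3194 and 2730.4 CPM in mice 23 and 26, with 3748 to 4522 CPM in saline. Microglia and macrophage markers summed to 5286 and 3776 CPM in mice 21 and 35, against 1450.4 and 2061 CPM in mice 23 and 26 and 409.8 to 449 CPM in saline. Thalamic markers, genes of tissue below the hippocampus, summed to 147 and 129 CPM in mice 21 and 35, to 53.03 and 73.2 CPM in mice 23 and 26 and to 60.3 to 82.96 CPM in saline, with 2 of 7 called higher and 1 lower. The part of these cells and of the dissection in the myelin values was not tested.

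At day 14 in the EZ all 7 myelin genes had positive log2 fold changes, from 0.47 for Myrf to 0.81 for Mbp, and none was called. Mbp measured 2201, 2642, 2216 and 1084 CPM in mice 14, 27, 36 and 40, against 1474, 1056, 1065 and 1064 CPM (log2 fold change 0.81, SE 0.28, adjusted p = 0.0869). Mobp measured 682, 688, 702 and 304 CPM, against 461, 324, 292 and 303 CPM (log2 fold change 0.78, SE 0.32, adjusted p = 0.171). For both genes mice 14, 27 and 36 were above every saline value and mouse 40 was within the saline range. Mog showed this split as well, at 56.1, 57.2, 56.5 and 28.7 CPM against 36.004, 29.3, 27.6 and 30.9 CPM in saline. Under edgeR, 6 of the 9 members had an unadjusted p under 0.05, as did 3848 of all 21390 genes. DESeq2 and limma-voom called none of the members. Over all genes 2.32% were called higher, 0.0374% were called lower and 4.58% had kainate wholly above saline. No member had separate groups. In the same libraries 6 of 8 microglia and macrophage markers were upregulated, and their sum lay wholly above saline, at 470.4 to 2634 CPM against 376 to 399 CPM. Their part in the myelin values was not tested.

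**Figure D2:**
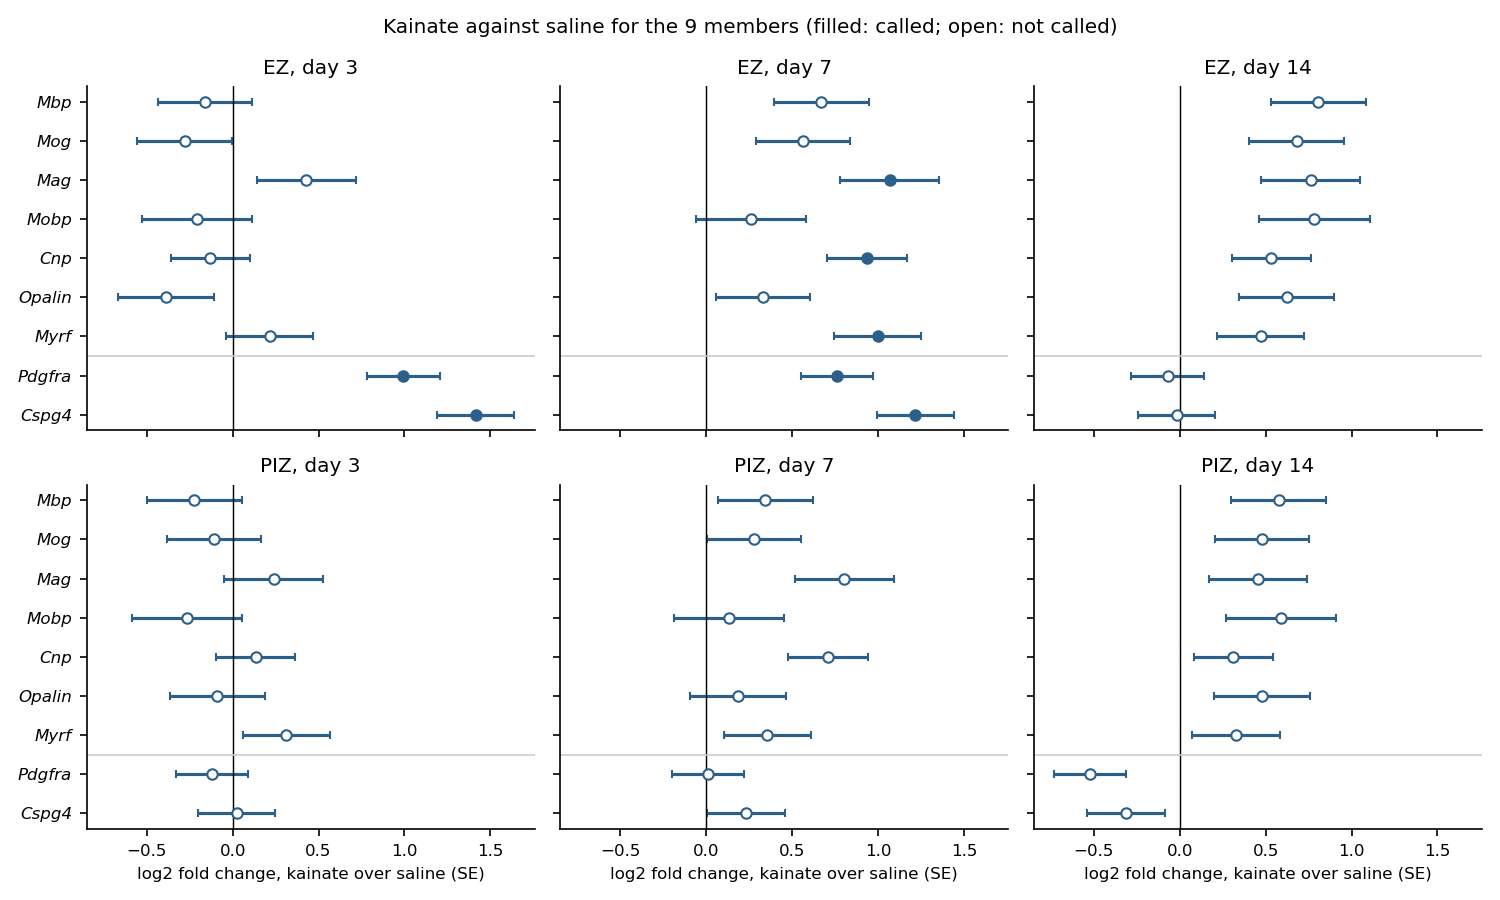
Log2 fold change of kainate over saline with its standard error for each member (myelin genes above the grey line, precursor genes below it) in each region and day, from edgeR with 4 mice a group, filled where called. Precursor genes are filled in the EZ at days 3 and 7, Mag, Cnp and Myrf in the EZ at day 7, and no member in the PIZ.

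The PIZ showed no called member at any day, but for some myelin genes the kainate values lay wholly above saline at the later times. Cnp at day 7 measured 216, 298, 258 and 207 CPM in mice 21, 23, 26 and 35, against 178, 131, 129.7 and 161 CPM in saline (log2 fold change 0.71, SE 0.23, adjusted p = 0.115). Mag measured 102, 164, 119 and 86.5 CPM, against 73.96, 57.3, 66.3 and 72.6 CPM (log2 fold change 0.804, SE 0.29, adjusted p = 0.162). In both genes every kainate-injected mouse was above every saline-injected one, as was also so for Myrf, so that 3 of 9 members had separate groups where 7.63% of all genes did. Limma-voom with quality weights called Mag and Cnp here, and edgeR, DESeq2 and limma-voom without weights called no member. Under edgeR 2 members had an unadjusted p under 0.05, as did 3104 of all 21390 genes. In this comparison 0.15% of all genes were called higher and 0.0514% lower. Neuron markers in the same libraries summed to 3049 to 3868 CPM after kainate, wholly below the 3891 to 4606 CPM of saline. Microglia and macrophage markers summed to 387 to 732 CPM, wholly above the 296 to 379 CPM of saline. Their part in the myelin values was not tested.

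At day 14 in the PIZ, Mbp, Mog, Mag, Mobp and Cnp had all 4 kainate-injected mice above all saline-injected ones, 5 of 9 members where 3.7% of all genes did so. Mbp measured 1698, 1233, 1441 and 1209 CPM in mice 14, 27, 36 and 40, against 1008, 1105, 993 and 641 CPM in mice 24, 28, 31 and 39 (log2 fold change 0.57, SE 0.28, adjusted p = 0.814). Saline-injected mouse 39 was well below the rest of its group, and mice 40 and 27 of the kainate group were the nearest to saline. Mobp measured 502, 374, 432 and 351 CPM, against 310.3, 343, 287 and 162 CPM (log2 fold change 0.59, SE 0.32, adjusted p = 0.889). EdgeR, DESeq2 and limma-voom called no member, 2 (Mbp and Pdgfra) having an unadjusted p under 0.05 in edgeR, as did 1277 of all 21390 genes. Over all genes 0.00935% were called higher and 0.00468% lower. At day 3 the PIZ held 7.12% of genes called higher and 1.57% lower. No member was called by edgeR, DESeq2 or limma-voom and none had an unadjusted p under 0.05, where 7641 of all 21390 genes did in edgeR. The myelin log2 fold changes ran from -0.27 for Mobp to 0.31 for Myrf.

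The myelin response was not shown to differ between regions or days. None of the 7 genes was called by edgeR in the EZ against PIZ difference at days 3, 7 or 14, where at day 14 0% of all genes were called. From day 3 to day 7 in the EZ the kainate effect moved by between 0.469 and 1.07 on the log2 scale over the myelin genes. EdgeR and DESeq2 called none of them, 4 having an unadjusted p under 0.05 in edgeR, as did 2565 of all 21390 genes. Limma-voom with quality weights called 2 members, and 0.145% of all genes were called by edgeR. The corresponding change in the PIZ called no member by any tool, with none at an unadjusted p under 0.05. Over all 21390 genes 2270 had such a p, and 0.0234% were called. In saline-injected mice at day 3 some marker sums lay wholly apart between the sides. Microglia markers summed to 482 to 799 CPM in the EZ and 283 to 394 in the PIZ. Astrocyte markers were at 6676 to 9657 against 4840 to 6377 and thalamic markers at 56.5 to 76.6 against 28.96 to 53.5. The choroid plexus sum was lower in the EZ, at 17.4 to 21.1 against 22.5 to 28.7. Their part in the EZ values was not tested. The injection side itself, EZ against PIZ in saline-injected mice, also gave no called member by any tool. An unadjusted p under 0.05 was seen for 325 of 21390 genes at day 7. There 0.0281% of genes were called at day 3, 0% at day 7 and 0% at day 14, and of the members Mag at day 7 alone had an unadjusted p under 0.05 (log2 difference 0.59, adjusted p = 1 in edgeR).

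The balance of the 2 sets was summarised in each library as the mean log2 CPM of the 7 myelin genes minus that of the 2 precursor genes. In the EZ at day 3 it was 0.39, 0.51, 0.25 and 0.88 after kainate and 1.90, 1.67, 1.83 and 1.59 after saline. The groups were apart, with means of 0.51 ± 0.27 and 1.75 ± 0.14 (SD, n = 4). At day 7 the means were 1.74 ± 0.36 and 2.07 ± 0.52, and the groups overlapped. At day 14 the order was the opposite of day 3, 2.29 ± 0.45 after kainate and 1.58 ± 0.17 after saline, with kainate-injected mouse 40 below saline-injected mouse 24. In the PIZ the groups overlapped at days 3 and 7, and at day 14 the values were 2.41, 1.96, 2.15 and 1.83 after kainate and 1.39, 1.51, 1.54 and 0.40 after saline, without overlap. These values describe chosen genes and carry no test.

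**Figure D3:**
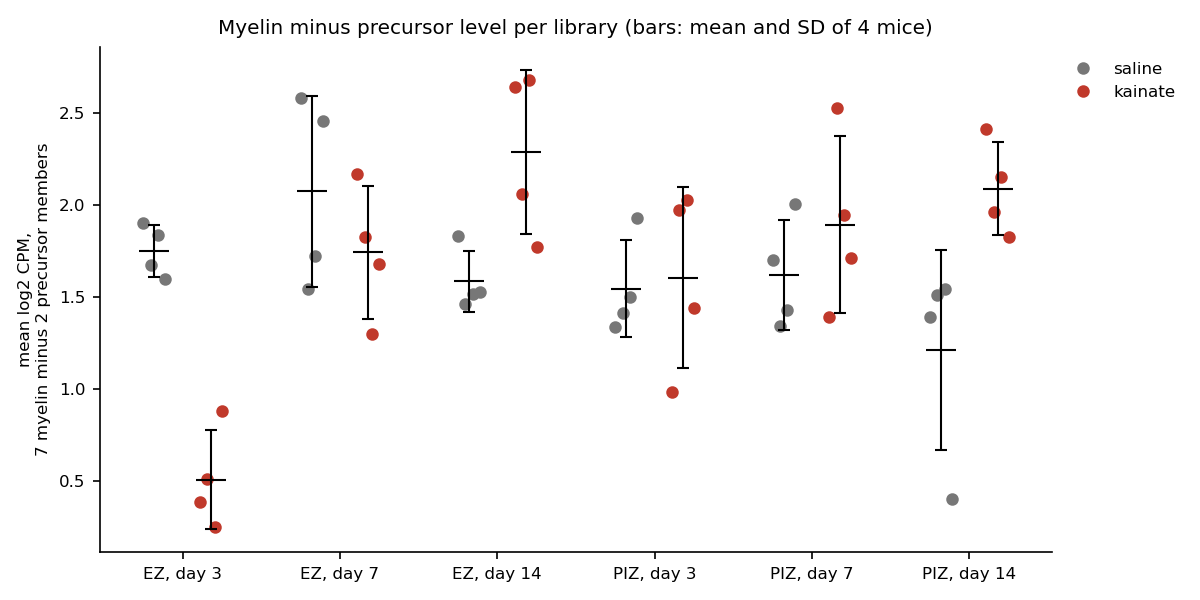
Mean log2 CPM of the 7 myelin genes minus that of the 2 precursor genes in each library (vertical axis, log2 units), by region and day, with saline-injected mice in grey, kainate-injected mice in red and the mean and SD of 4 mice as black bars. In the EZ at day 3 the kainate mean is 0.509 against 1.75 in saline, and in the PIZ at day 14 it is 2.09 against 1.21.

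After the mean of each group was taken out, the members still varied together between mice. Over 48 libraries of 24 mice, which share dissection, depth and, in pairs, an animal, Pearson correlations of log2 CPM between the 21 pairs of myelin genes ran from 0.758 to 0.978, with a median of 0.883. Pdgfra and Cspg4 correlated at 0.79. The 14 pairs of a myelin with a precursor gene ran lower, from 0.194 to 0.542. Of the other genes, those close to the mean of the myelin members included Tspan2 (0.946), Septin4 (0.944), Enpp2 (0.943) and Mal (0.941). For Pdgfra they were Dpy19l1 (0.853), Akap12 (0.853) and Sav1 (0.842), and for Cspg4 Anxa2r1 (0.928), Dhrs3 (0.892) and Piezo1 (0.885).

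**Figure D4:**
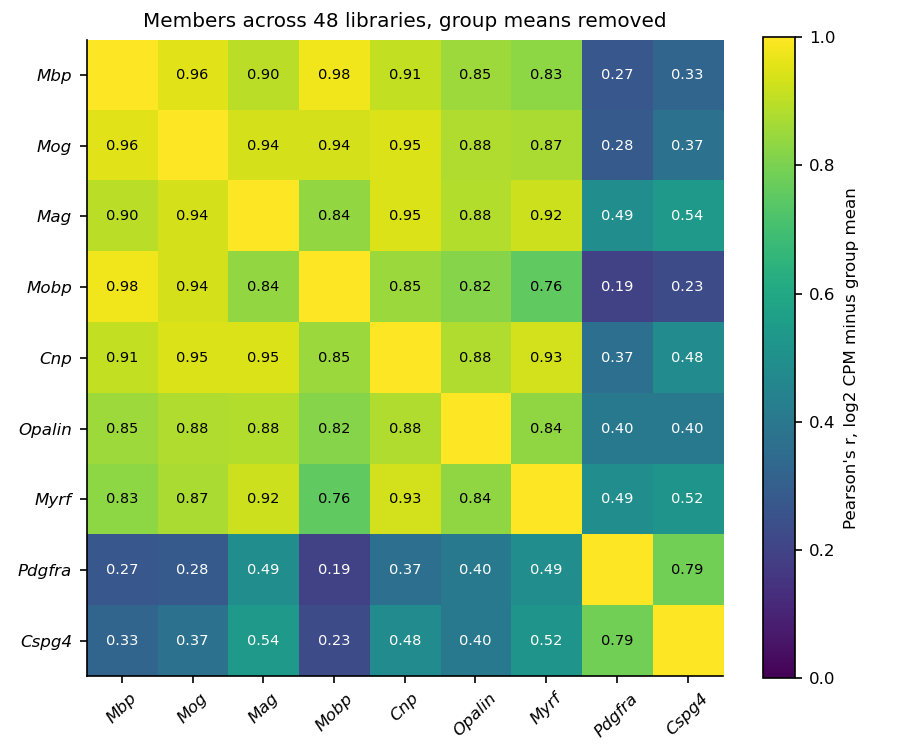
Pearson correlation between each pair of members over 48 libraries, of log2 CPM after the mean of each of the 12 groups was taken out, as a colour scale. The 21 myelin pairs have a median of 0.883, the 14 myelin with precursor pairs of 0.387, and Pdgfra with Cspg4 is at 0.79.

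The other 74 genes of 8 lineage lists, all tested, are given by role. In the EZ 23 were upregulated and 7 downregulated at day 3, and 44 and 4 at day 7, 48 in all, against a count of 22 when only the 8 libraries compared were modelled. Over all genes 16.1% were called higher and 8.61% lower at day 3, and 20.6% and 11.9% at day 7. In the EZ at day 3 the summed neuron markers were 3513 to 4297 CPM in saline and 1537 to 2559 CPM in kainate, with 3 of 8 downregulated. Microglia and macrophage markers summed to 482 to 799 CPM in saline and 1221 to 2191 CPM in kainate, with 7 of 8 upregulated. Astrocyte markers also lay wholly above saline, at 9821 to 11392 CPM against 6676 to 9657 CPM at day 3 and 12119.9 to 13861 CPM against 5417 to 6073 CPM at day 7. The part of these cells in the lineage lists was not tested.

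Of 14 further precursor genes, 7 were upregulated at day 3 and 12 at day 7, among them Vcan, a matrix proteoglycan (log2 fold changes 1.38 and 1.64), and the transcription factor Sox6 (1.02 and 1.502). Of 9 lineage transcription factors, 4 were upregulated at day 3 (Nkx2-2, Olig1, Olig2 and Sox10) and 7 at day 7, while St18 was downregulated at day 7 (-0.61). The St18 call was lost in edgeR without any 1 of mice 20, 21, 33, 35 and 89 (adjusted p 0.0112 to 0.0745). Olig1 measured 44.5 to 53.5 CPM in saline and 124 to 164 CPM in kainate at day 3 (log2 fold change 1.53).

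Of 9 genes of the committed and newly formed stage, 1 was upregulated at day 3 (Itpr2, a calcium channel of the endoplasmic reticulum, at 0.68) and 1 downregulated (Mycl, at -1.33), against 7 upregulated at day 7. The Itpr2 call at day 3 was lost in edgeR without any 1 of mice 18, 30, 37, 38, 41 and 42 (adjusted p 0.0115 to 0.0199). Bcas1, a marker of newly formed oligodendrocytes, measured 77.1 to 145 CPM in saline and 123 to 446 CPM in kainate at day 7 (log2 fold change 1.36). The log2 fold change was higher at day 7 than at day 3 for 9 of the 9 genes (median change 0.89 on the log2 scale). A rise was not particular to this stage, as all 7 myelin members rose too, by 0.469 to 1.07. Pdgfra (-0.232) and Cspg4 (-0.196) did not. Of the 9 changes of the committed stage edgeR called 1, with 7 at an unadjusted p under 0.05. Over all 74 genes the change from day 3 to day 7 was called for 1, and over all genes for 0.145%. Of all 21390 genes, 2565 had an unadjusted p under 0.05 for it. The difference between the EZ and the PIZ in the kainate effect at day 7 was called, higher in the EZ, for 10 of the 14 further precursor genes and 5 of the 9 of the committed stage, against 9.89% of all genes in either direction. It was called for 0 of the 18 sheath and axon-glia proteins in that direction and 1 in the other. Over all 74 it was called higher in the EZ for 19 and lower for 1.

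Of 18 further sheath and axon-glia proteins, 1 (Gjb1) was upregulated and 2 (Omg and Tppp) were downregulated at day 3, with 5 (Gjb1 among them) and 1 (Tppp) at day 7. Of 6 lipid enzymes, Cers2 (0.78) and Elovl1 (1.06) were upregulated and Aspa downregulated at day 3, and 4 were upregulated at day 7, including Ugt8a, which makes galactosylceramide (0.99). Of 8 further genes of mature cells, 3 were upregulated at day 3 and 5 at day 7. The protease gene Klk6 went from 0.261 to 1.93 CPM in saline to 9.69 to 75.7 CPM at day 7 (log2 fold change 5.58), and Trf, which encodes the iron carrier transferrin, had a log2 fold change of 2.41. Efnb3 was downregulated at both days (-0.96 and -0.75). Ugt8a was no longer called without mouse 21 (adjusted p = 0.024) or mouse 35 (adjusted p = 0.0137) in edgeR, and Klk6 at day 7 was 6.28 without saline-injected mouse 89.

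Of the 5 genes of the PDGF list, Pdgfb, Pdgfc and Pdgfrb were upregulated at both days in the EZ, Pdgfrb, the beta receptor of mural cells, by 0.79 and 1.05 on the log2 scale. Pdgfrb also belongs to the pericyte list. Of 5 inhibitors of differentiation, Id2 (1.24) and Lingo1 (1.102) were upregulated and Hes5 and Id4 downregulated at day 3, and at day 7 Id2 was upregulated and Hes5 downregulated. In edgeR Pdgfrb at day 3 was lost without mouse 38 (adjusted p = 0.0105) and Lingo1 without mouse 30 (adjusted p = 0.0184). Id2 at day 7 was lost without any 1 of mice 20, 23, 35 and 89 (adjusted p 0.00601 to 0.0148), its log2 fold change of 0.59 being just past the fold threshold. In the PIZ 9 of the 74 were upregulated at day 3, among them Klk6 (6.06), Trf (1.95) and Olig1 (0.95), and Hes5 was downregulated, where 7.12% of all genes were called higher and 1.57% lower. These 10 calls became 19 at an adjusted p under 0.05, 22 with limma-voom with quality weights and 21 with only the groups compared. In the same libraries 8 of 8 microglia and macrophage markers were upregulated, and the dividing cell markers summed to 32.997 to 39.1 CPM in saline and 91.3 to 110.3 CPM in kainate. Astrocyte markers summed to 4840.5 to 6377 CPM in saline and 9772 to 10707 CPM in kainate. Their part in these calls was not tested.

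At day 14 in the EZ 2 of the 74 were called, Klk6 and Emid1, both higher, which is close to the 2.32% of all genes called higher. Klk6 measured 1.81, 42.3, 1.29 and 1.25 CPM in mice 14, 27, 36 and 40, against 0.89, 0.25, 0.295 and 0.317 CPM in saline, and Emid1 5.44, 55.6, 5.28 and 6.89 CPM against 5.44, 4.55, 5.07 and 4.93 CPM. Mouse 27 was far above the other 7 libraries of this comparison for both genes. The log2 fold change of 4.73 for Klk6 was 1.72 without it (adjusted p = 0.77 in edgeR), and that of 1.87 for Emid1 was 0.24 (adjusted p = 1 in edgeR). In mouse 27 the microglia and macrophage markers summed to 2634 CPM, where the whole kainate group ran from 470.4 to 2634 CPM and saline from 376 to 399 CPM. No lineage gene was called with the mouse as a block, with only the groups compared, or without mouse 27, 31 or 39. In the PIZ at days 7 and 14 edgeR called none of the 74, with 16 and 11 at an unadjusted p under 0.05. Of all 21390 genes, 3104 and 1277 had such a p. At day 7 DESeq2 called 1 of them and limma-voom with quality weights 7, and at day 14 neither called any.

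**Figure D5:**
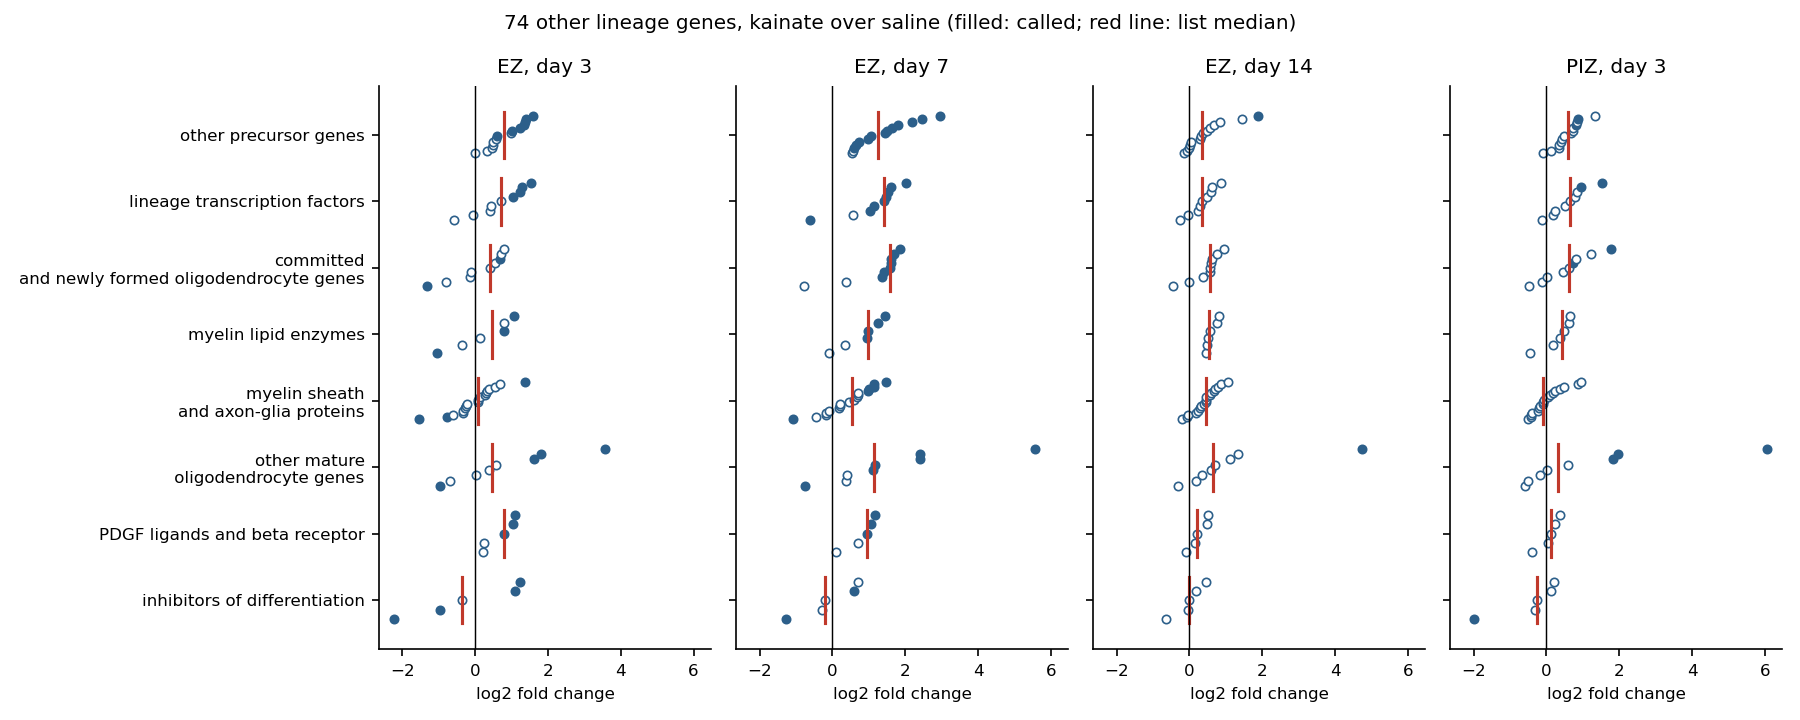
Log2 fold change of kainate over saline for each of the 74 other lineage genes (1 point a gene, filled where called by edgeR), by list and comparison, with the list's median as a red line. In the EZ at day 7, 12 of 14 further precursor genes and 7 of 9 genes of the committed and newly formed stage are filled on the higher side.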

How the data were processed

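RNA of 48 dentate gyrus libraries (EZ and PIZ of 24 mice) was sequenced from stranded polyA libraries. The authors trimmed reads with fastp 0.20.1, aligned them to GRCm39 with HISAT2 2.2.1 and counted read pairs per Gencode gene with featureCounts (Subread 1.6.4), strand-specifically and with multi-mapping reads kept at their primary alignment. The deposited values are raw counts per gene, not normalised. Identifiers were matched to a later Gencode release (98.90% matched). Library totals ran from 17762656 to 25712975 (median 22108562.5).

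Groups, region, day and mouse came from the sample labels. Genes were filtered with filterByExpr and scaled with TMM, and 12 group means were fitted to all 48 libraries by quasi-likelihood in edgeR 4.0.16 (R 4.3.3). P-values were adjusted by Benjamini-Hochberg over 21390 genes. Calls required an adjusted p below 0.01 together with a change of more than 1.5-fold. CPM are TMM-scaled, and log2 CPM used a prior count of 2. The procedure was run on simulated counts in which few genes changed, in the kainate EZ group at day 7 only, and libraries of a mouse were not linked. In the real comparison 20.6% of genes were called higher and 11.9% lower. The simulation was thus a check of the code and not of the calls under these conditions. The labels give no batch. Each mouse gave an EZ and a PIZ library, which pairs them. Their residual correlations ran from -0.0536 to 0.376 (median 0.208), and the consensus correlation of the block was 0.163.

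Alternatives were DESeq2 1.42.0, limma-voom 3.58.1 with quality weights or with the mouse as a block, other scalings (RLE size factors, library size only), other filters, an adjusted p under 0.05, only the groups compared, and each mouse left out. Limma-voom without a block was added after seeing the data. The members and gene lists were chosen with earlier results of these data known. Genes named are the members, the 2 most abundant of each lineage list and the genes of lowest p there in the EZ at day 3 or day 7, the genes closest to the members in residual correlation, and genes behind counts of 5 or fewer. Some genes that this rule names are not reported here. Promoters are RefSeq windows of GRCm38.p6. Authors' comparisons were not used.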

Additional observations from a re-analysis of the deposited data

Results flagged for a closer look

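Of 108 groups of 4 libraries (9 members in 12 groups), 13 held a library far from the other 3 by Dixon's test. Its cut-off is passed by chance in about 1 in 20 independent groups. The members share the same libraries and vary together, so the 13 cannot be set against that rate. Each value is in CPM, followed by the range of the others. Mbp had in the EZ at day 14 saline-injected mouse 24 at 1474 (1056 to 1065) and in the PIZ at day 3 saline-injected mouse 41 at 1518 (1069 to 1128). Mog had in the EZ at day 14 kainate-injected mouse 40 at 28.7 (56.1 to 57.2) and in the PIZ at day 14 saline-injected mouse 39 at 17.2 (27.4 to 29.1). Mag had in the PIZ at day 14 saline-injected mouse 39 at 44.4 (66.7 to 71.4). Mobp had in the EZ at day 14 kainate-injected mouse 40 at 304 (682 to 702). Cnp had in the PIZ at day 3 saline-injected mouse 41 at 193 (156 to 159.8). Opalin had in the PIZ at day 14 saline-injected mouse 39 at 9.596 (13.6 to 14.5). Myrf had in the EZ at day 14 saline-injected mouse 24 at 39.6 (31.5 to 32.4). Pdgfra had in the EZ at day 7 saline-injected mouse 34 at 49.02 (46.7 to 46.9) and in the PIZ at day 14 kainate-injected mouse 14 at 35.5 (39.8 to 40.6). Cspg4 had in the EZ at day 14 saline-injected mouse 39 at 21.9 (19.98 to 20.1) and in the PIZ at day 14 saline-injected mouse 39 at 27.2 (18.8 to 19.6). Mouse 39 appears in 5 of the 13, all in saline.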

How the results depend on the processing

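The 2 members called in the EZ at day 3 numbered 2 under every alternative run, and 0 members were called under all of them in the EZ at day 14 and in the PIZ at days 3 and 14. In the EZ at day 7 the count of 5 became 3 with the mouse as replicate block, 3 with limma-voom without the block and 0 with only the groups compared, and leaving out 1 mouse at a time gave 1 to 6. Limma-voom gave 3 both with and without the block, so the block itself did not change this count. With the block, no other count of members called differed from that of edgeR. In the PIZ at day 7 the count of 0 became 2 with limma-voom with quality weights. The EZ against PIZ difference at day 3 went from 0 to 1 at an adjusted p under 0.05, 1 with DESeq2 and 2 with quality weights, and 0 to 2 with 1 mouse left out. At day 7 it went to 1 at an adjusted p under 0.05 and 2 with quality weights, and 0 to 1 with 1 mouse left out. The change from day 3 to day 7 in the EZ went from 0 to 2 with quality weights. That from day 7 to day 14 went to 1 at an adjusted p under 0.05, 1 with DESeq2 and 2 with quality weights, and 0 to 2 with 1 mouse left out. Of the 74 other lineage genes, the 2 called in the EZ at day 14 became 0 to 6 under other settings (0 with the replicate block) and 0 to 9 with 1 mouse left out, 9 without mouse 40. The 10 in the PIZ at day 3 became 19 at an adjusted p under 0.05, 22 with quality weights and 21 with only the groups compared, and the 0 in the PIZ at day 7 became 1, 7 and 2. The cause was not tested.

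Signs turned only in members that were not called. With library size only, log2 fold changes were 6.14e-05 for Cnp in the EZ at day 3, 0.0159 for Cspg4 in the EZ at day 14 and 0.00913 for Opalin in the PIZ at day 3. That scaling put the median of all genes at 0.16 in the EZ at day 3, against 0.03 with TMM. With at least 10 counts in every library Cspg4 in the EZ at day 14 was 0.00242. Pdgfra in the PIZ at day 7 was -0.0259 with quality weights, -0.00476 with the replicate block and -0.00445 without it. With 1 mouse left out, the EZ day 7 values ran from -0.151 to 0.571 for Mobp and -0.155 to 0.56 for Opalin, and the EZ day 14 values from -0.271 to 0.0426 for Pdgfra and -0.303 to 0.104 for Cspg4. In the PIZ at day 3 they ran from -0.26 to 0.0307 for Mog, -0.022 to 0.266 for Cnp and -0.0308 to 0.0947 for Cspg4, and at day 7 from -0.0878 to 0.255 for Mobp, -0.00768 to 0.297 for Opalin and -0.0946 to 0.0827 for Pdgfra.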
